A study of Gallus gallus with 7 samples.

Results

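The regions described here are 224 tiles of 500 bp in which CpG methylation differed by at least 40 percentage points between the highest and the lowest of 4 pools of microglia from non-conditioned chicks. They were chosen from 14523 eligible tiles, those with 6 or more cytosine positions that had a value in each of the 7 libraries of the series, and are 1.54% of them. The choice read the tile means of the 4 non-conditioned libraries alone. Their range is therefore a description, and the 3 conditioned libraries hold the values that the choice left unread. Methylation was measured by reduced representation bisulfite sequencing, which samples CpG-rich fragments and reports, at each cytosine, the percentage of reads that kept it as methylated. The conditioned group holds 3 libraries, numbered 1-2, 3 and 4, of chicks kept at 39 °C for 24 hours on day 3 after hatch. The non-conditioned group holds 4 libraries, numbered 1 to 4, of chicks without that treatment, and the labels do not describe their housing. All birds were sampled at day 10, before any immune challenge, and per the labels' protocol the microglia were sorted from anterior hypothalamus cells pooled from 10 to 12 chicks. The labels do not explain the number 1-2, and its library was counted as 1 sample. A pool averages over birds and over cells, so a level of 50% in 1 library can be a mixture of birds, of cells or of alleles, and these cannot be told apart. The labelled cell type could not be checked, because the files hold no expression values.

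In vertebrate DNA, methyl groups sit mainly on the cytosine of CpG dinucleotides, where the sequence reads the same on both strands. After DNA replication the maintenance methyltransferase DNMT1 copies the mark from the old strand to the new one, so a CpG is usually methylated on both strands or on neither. CpG-dense islands at gene starts are mostly unmethylated and the remaining genome mostly methylated, with partly methylated regions in between. Microglia are the resident macrophages of the brain, and the anterior hypothalamus holds neurons that regulate body temperature. The tiles below carry chromosome coordinates of the build galGal5, counted from 1, and were given no gene names because no gene annotation of that build was used here.

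The number of reads behind each percentage is not in the site table, so depth is unknown and no value carries a counting interval. The table reaches chromosomes 1 and 10 to 13 and the first part of chromosome 14. Over the eligible tiles that are not variable, the library means were 31.0%, 26.5% and 28.1% in conditioned libraries 1-2, 3 and 4, and 28.7%, 29.6%, 29.8% and 29.9% in non-conditioned libraries 1 to 4. Conditioned libraries 3 and 4 thus lay below every non-conditioned library and conditioned 1-2 above every one.

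Variable tiles were found on each chromosome of the table: 90 on chromosome 1, 38 on chromosome 10, 22 on chromosome 11, 27 on chromosome 12, 39 on chromosome 13 and 8 on the part of chromosome 14. Their share of eligible tiles ran from 1.20% on chromosome 11 to 1.99% on chromosome 13. The range over the non-conditioned libraries had a median of 47.0 points. It lay between 40 and 50 points in 140 tiles, between 50 and 70 points in 69 and at 70 points or more in 15. The tiles just inside the threshold had exactly 40 points, and those just outside had 39.97, 39.92 and 39.7 points, so no gap parts the tiles at that border.

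Variable tiles held few measured cytosines and sat at intermediate levels. They had a median of 8 used positions against 21 in the other eligible tiles, and 168 of the 224 had 10 or fewer. These positions spanned a median of 113 bp. In 41 variable tiles (18.3%) every position lay on 1 strand, against 1.36% of the other tiles. A median of 42.1% of the positions that the table lists in a variable tile had values in all 7 libraries, against 63.0% in the other tiles. In the conditioned libraries, which the choice did not read, 170 variable tiles (75.9%) had a mean between 20% and 80%, against 36.8% of the other tiles. Their median conditioned mean was 47.8%, against 12.2% in the other tiles.

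Within variable tiles, values at 100% were more common than in the other eligible tiles in every library, conditioned ones included. Values at 0 were not more common than elsewhere in most libraries. Of the 2048 positions used, conditioned libraries 1-2, 3 and 4 had 27.2%, 22.4% and 19.6% at 0, and non-conditioned libraries 1 to 4 had 39.2%, 30.2%, 32.8% and 34.4% at 0. At 100% the shares were 19.7%, 6.88% and 8.20% in conditioned libraries 1-2, 3 and 4, and 16.8%, 27.1%, 28.1% and 28.9% in non-conditioned libraries 1 to 4. In the other eligible tiles, 1.98% to 2.95% of positions in the conditioned libraries and 3.60% to 4.19% in the non-conditioned libraries were at 100%. At 0, the other tiles had 28.7%, 44.8% and 42.3% of positions in conditioned libraries 1-2, 3 and 4, and 36.8%, 38.4%, 38.6% and 37.1% in non-conditioned libraries 1 to 4, which is more than in variable tiles in every library but non-conditioned 1. Conditioned libraries 3 and 4 had the fewest values at either end within variable tiles. A wide non-conditioned range was the condition for the list, and it favours values at the ends in the 4 non-conditioned libraries. Their shares, and the contrast with the conditioned libraries, therefore describe the list only. The part of read depth in these shares was not tested.

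The 6 widest tiles of all had ranges of 83.3 to 100 points, and 4 of the 6 were read on 1 strand only. At chromosome 1, 64589001 to 64589500, conditioned libraries 1-2, 3 and 4 had 3.57%, 0 and 0, and non-conditioned libraries 1 to 4 had 0, 0, 100% and 0. Non-conditioned library 3 stood at 100% at each of the 14 positions, all on the reverse strand, while the other libraries were listed at 0 at every one of them, except for 50% at 1 position in conditioned 1-2. At chromosome 11, 10120501 to 10121000, all 3 conditioned libraries were listed at 0 and the non-conditioned libraries had 0, 0, 100% and 14.3% over 7 reverse-strand positions. Here too non-conditioned library 3 was alone at the top. At chromosome 13, 17650001 to 17650500, the conditioned libraries were again listed at 0, against 0, 90.9%, 0 and 45.5% in non-conditioned libraries 1 to 4 over 11 forward-strand positions. At the used positions of these 3 tiles, the high value therefore belonged to 1 or 2 non-conditioned pools. The chromosome 13 tile had 19 further positions with values in both extreme libraries but not in all 7. There its highest and its lowest non-conditioned library were both at 0. The eligible tiles bordering the 3 had non-conditioned ranges of 3.60, 2.94 and 2.47 points, in the order above.

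Other tiles among the 6 widest were also wide among conditioned pools or high in them. At chromosome 11, 1765001 to 1765500, conditioned libraries 1-2, 3 and 4 had 78.6%, 25% and 49.0%, and non-conditioned libraries 1 to 4 had 71.4%, 0, 85.7% and 92.9% over 7 positions. At chromosome 11, 18835501 to 18836000, the conditioned libraries had 63.9%, 81.9% and 75.2%, against 39.3%, 100%, 61.1% and 16.7% in the non-conditioned libraries over 6 positions. The conditioned values lay inside the non-conditioned range in both tiles. The remaining one, at chromosome 10, 6669001 to 6669500, was read on both strands and had 0, 9.29% and 2.86% in the conditioned libraries and 85.7%, 0, 35.7% and 0 in the non-conditioned ones. These 6 tiles were singled out after their values were seen.

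**Figure D1:**
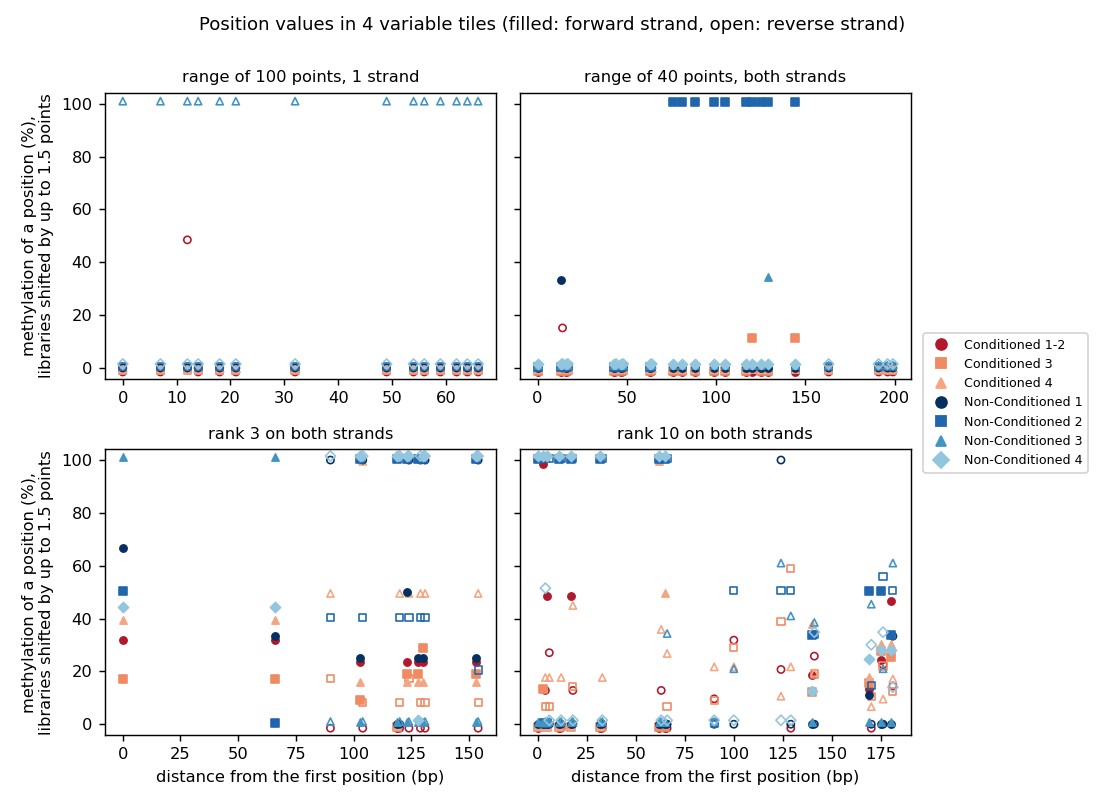
Percent methylation of single positions (y axis, libraries shifted by up to 1.5 points so that equal values can be seen) against distance from the first position in bp (x axis) in 4 variable tiles: chromosome 1, 64589001 to 64589500 (upper left), chromosome 12, 254501 to 255000 (upper right), chromosome 1, 33910001 to 33910500 (lower left) and chromosome 13, 632001 to 632500 (lower right). Warm colours are conditioned and blue non-conditioned libraries, and filled markers are forward-strand and open markers reverse-strand cytosines; in the upper panels 1 non-conditioned library stands at 100% in a run of positions of 1 strand.

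Both strands were measured, with 3 or more positions on each, in 121 of the 224 variable tiles (54.0%), against 94.0% of the other tiles. The non-conditioned range reached 40 points on each strand in 60 of the 121 and on 1 strand only in 61. The median was 67.5 points on the strand with the larger range and 39.2 points on the other, and 20 tiles had under 20 points on 1 strand. Since the pooled mean chose the tiles, at least 1 wide strand was to be found in nearly all of them. The tile at chromosome 12, 254501 to 255000, had a range of 62.5 points on the forward strand and 0 on the reverse strand. Its conditioned libraries had 0.667%, 1% and 0, and its non-conditioned libraries had 1.33%, 40%, 1.33% and 0 over 25 positions. Non-conditioned library 2 was at 100% at 10 of the 16 forward-strand positions and at 0 at all 9 reverse-strand ones. Those 10 positions lay 76 to 144 bp from the first position, a stretch without any used reverse-strand position. At the CpGs of this tile that were read on both strands, library 2 was at 0 on both. In this tile the strands were thus read at different places, and a difference between strands at the same CpGs was not seen. That does not hold for every tile, as a tile described below shows.

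**Figure D2:**
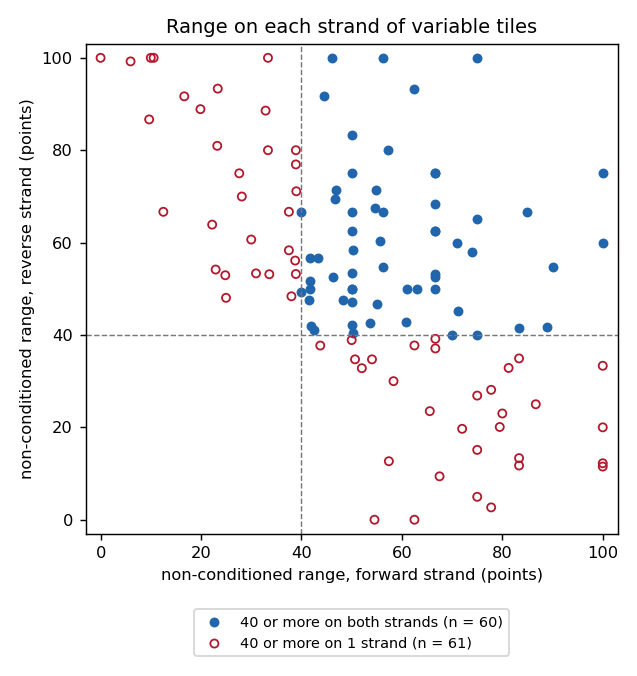
Range over the 4 non-conditioned libraries on the forward strand (x axis, percentage points) and on the reverse strand (y axis, percentage points) in the 121 variable tiles with 3 or more positions on each strand; each point is a tile and the dashed lines mark 40 points. The 60 filled points are at 40 or more on both strands, and the 61 open points on 1 strand only.

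The 12 tiles with the largest range among the 60 that were wide on both strands had 57.3 to 85.7 points. They were picked by that range, so a narrower conditioned range in them describes the list only. At chromosome 13, 18023501 to 18024000, the conditioned libraries had 61.1%, 70.7% and 55.1%, and the non-conditioned libraries had 80%, 96.7%, 20.8% and 66.7%. By these means over 6 positions, only non-conditioned library 3 stood below the conditioned values there. The strands differed: non-conditioned library 3 was lowest on the forward strand, at 0, and non-conditioned library 4 on the reverse strand, at 33.3%. At chromosome 1, 33910001 to 33910500, the conditioned libraries had 12.8%, 14.5% and 37.6%, against 56.7%, 60.7%, 13.3% and 85.7% in the non-conditioned ones over 15 positions. Non-conditioned library 3 was again the low one and lay among the conditioned libraries. At chromosome 10, 2699501 to 2700000, the conditioned libraries lay within 4.70 points of each other at 36.9%, 35.6% and 32.2%, while the non-conditioned libraries had 7.33%, 70.8%, 5.83% and 37.2%.

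The 12 tiles did not share an odd library. At chromosome 11, 6059501 to 6060000, non-conditioned library 1 alone was low: the conditioned libraries had 64.7%, 58.6% and 63.4%, and the non-conditioned libraries 10.4%, 67.7%, 66.7% and 54.3% over 16 positions. At chromosome 10, 20386001 to 20386500, non-conditioned library 4 was low, with 59.1%, 80.3% and 64.0% in the conditioned libraries and 41.1%, 41.7%, 67.0% and 6.82% in the non-conditioned ones over 22 positions. At chromosome 13, 632001 to 632500, the tile with the most positions of all 224, the conditioned libraries had 19.0%, 12.8% and 21.6% and the non-conditioned libraries had 5.35%, 65.5%, 11.7% and 38.7% over 27 positions. The high libraries differed in that tile between its strands: non-conditioned library 4 stood at 100% at 8 of 12 forward-strand positions and at none of the 15 reverse-strand positions. This included CpGs read on both strands. At those 5 and 11 bp from the first position, for example, library 4 was at 100% on the forward strand and at 0 on the reverse strand. Non-conditioned library 2 stood at 100% at 6 forward-strand and 7 reverse-strand positions.

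In the remaining tiles of the 12, both groups were wide or the conditioned libraries sat in the middle. At chromosome 10, 19082001 to 19082500, the conditioned libraries had 74.2%, 24.5% and 39.6%, against 45.0%, 43.3%, 30.0% and 100% in the non-conditioned ones. At chromosome 10, 13061001 to 13061500, the values were 8.33%, 36.1% and 75.0% in the conditioned and 33.3%, 66.7%, 0 and 0 in the non-conditioned libraries, and both ranges were 66.7 points. At chromosome 1, 130484001 to 130484500, the conditioned libraries had 66.7%, 36.7% and 53.1%, and the non-conditioned ones 32.4%, 59.1%, 100% and 35.7%. The tiles at chromosome 13, 8421501 to 8422000, and chromosome 1, 268001 to 268500, had conditioned ranges of 25.1 and 23.8 points against non-conditioned ranges of 61.0 and 58.1 points.

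**Figure D3:**
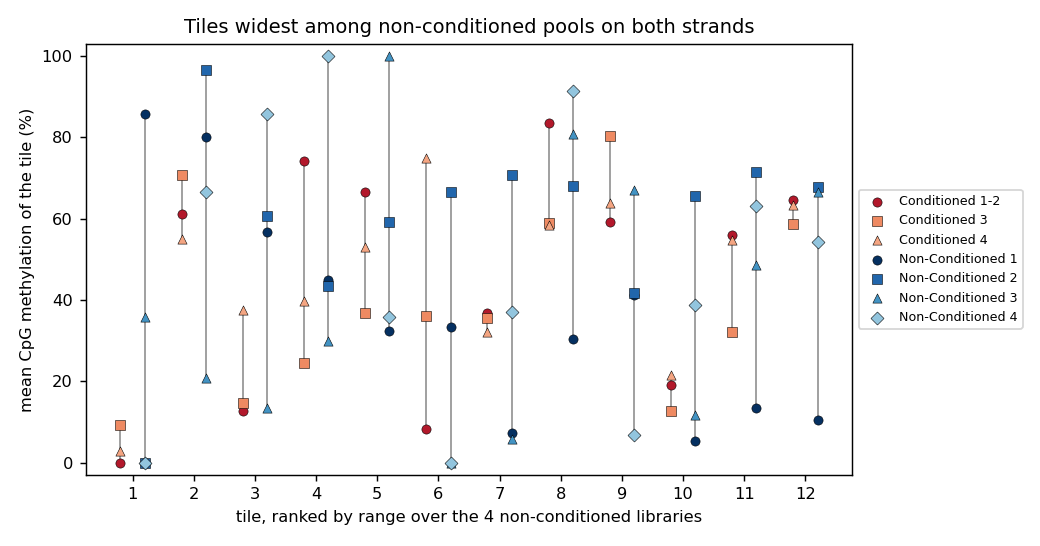
Mean CpG methylation in percent (y axis) of the 12 variable tiles with the largest range among those with at least 40 points on both strands (x axis, ranked), with the 3 conditioned libraries left and the 4 non-conditioned libraries right at each rank; grey lines join the lowest and highest library of a group and equal values overlap. The conditioned span is shorter than the non-conditioned one in all but the tile at rank 6, where both are 66.7 points, and the odd non-conditioned library changes from tile to tile. The tiles were picked by the range over the 4 non-conditioned libraries, so a shorter span over the 3 conditioned ones describes the list only.

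Across all 224 tiles, non-conditioned library 1 was most often the lowest. It was lowest in 95 tiles (42.4%) and highest in 29 (12.9%), whereas in the other eligible tiles it was lowest in 31.2% and highest in 20.1%. Libraries 2, 3 and 4 were lowest in 41, 43 and 45 variable tiles and highest in 69, 61 and 65. Over the variable tiles, the mean level was 48.8%, 40.8% and 45.0% in conditioned libraries 1-2, 3 and 4, and 39.4%, 49.6%, 49.9% and 49.2% in non-conditioned libraries 1 to 4. No library alone made the list: with 1 left out, the remaining 3 spanned 40 points in 139 tiles without library 1, 141 without library 2, 140 without library 3 and 131 without library 4. Of the 224 tiles, 83 to 93 thus had under 40 points once a given library was left out.

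The shape of the 4 values varied. In 70 tiles the gap below the highest library took up most of the range, in 58 the gap above the lowest did, in 32 the gap between the middle libraries did, and in 64 no gap was that large. Where 1 library stood apart at the top, 15 of 210 conditioned values (7.14%) lay on its side of the gap's midpoint, and in 58 of the 70 tiles none did. Where 1 library stood apart at the bottom, 26 of 174 conditioned values (14.9%) lay on its side, and in 38 of the 58 tiles none did. In the 32 tiles with the gap in the middle, conditioned libraries fell on both sides in 22. Where 1 library stood apart, most conditioned values thus lay on the side of the other 3 non-conditioned pools. The odd library was defined by the same 4 values that chose the tile, so this outcome is largely set by the choice. The counts are over tiles, which share their 7 libraries.

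The order of the extreme libraries was read again at cytosines or strands that had not fixed it. When the highest and lowest libraries were taken from 1 strand and read on the other, the highest was above the lowest in 191 of 242 readings, with a median difference of 25 points. Both strands count toward the tile mean that chose the tile, so this reading is not independent of the choice. The same library was highest on both strands in 57 of 121 variable tiles (47.1%) and lowest on both in 65 (53.7%), against 25.6% and 27.3% of the other tiles. A choice by the mean over both strands favours tiles whose strands share their extreme libraries, so this contrast describes the list only. Within a library, the strands of a tile differed by a median of 11.6 points in the conditioned and 18.0 points in the non-conditioned libraries of variable tiles, and by 3.53 and 4.51 points in the other tiles.

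At cytosines that the choice had not used, the order was mixed; this reading was added after the data were seen. In 80 variable tiles, 3 or more further positions had values in both extreme libraries but not in all 7. There, the tile's highest library was above its lowest in 37 tiles, below it in 25 and equal to it in 18, with a median difference of 0 points, although the tiles themselves had a median range of 47.8 points. Such positions lacked a value in at least 1 other library, and the part of their depth was not tested. In the 125 eligible tiles that border a variable one, the highest library was above the lowest in 69 (55.2%), with a median difference of 0.496 points. Their non-conditioned range had a median of 8.75 points, against 6.35 points in all eligible tiles, and it was under 20 points in 108 of the 125. The non-conditioned means of neighbour and variable tile lay a median of 15.0 points apart. A neighbour with a low level leaves little room for a difference, and the part of level was not tested. Of those 125, 2 were themselves variable. An eligible neighbour existed for 107 of the 224 variable tiles (47.8%), against 69.6% of the other tiles.

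**Figure D4:**
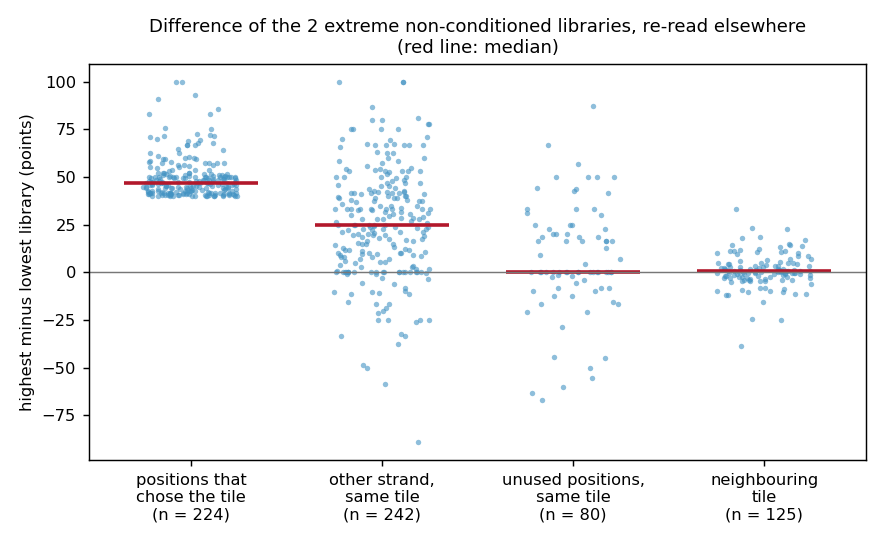
Difference in percentage points (y axis) between the non-conditioned library that is highest and the one that is lowest, at the positions that chose the tile (224 tiles), on the other strand of the same tile (242 readings of 121 tiles), at positions of the same tile that the choice did not use (80 tiles) and in neighbouring tiles (125 tiles); each point is a tile or reading and red lines are medians. The medians are 47.0, 25, 0 and 0.496 points.

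One pair of variable tiles was adjacent, and its members did not share their extreme libraries. At chromosome 11, 2101501 to 2102000, the conditioned libraries had 88.5%, 86.8% and 92.5%, and non-conditioned library 2 was lowest among 75.0%, 52.1%, 100% and 88.8%. At 2102001 to 2102500 of the same chromosome, the conditioned libraries had 82.8%, 66.6% and 79.7%, and non-conditioned library 3, the highest in the tile before, was lowest among 69.8%, 73.8%, 35.4% and 77.1%.

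Variable tiles were also wider among the conditioned pools, though far less than among the pools that chose them. A wide non-conditioned range was the condition for the list, so the contrast between the groups describes the list only. The range over the 3 conditioned libraries had a median of 17.0 points in variable tiles, against 5.56 points in all eligible tiles. It reached 40 points in 22 of the 224 (9.82%), where 0.647% of all 14523 eligible tiles did. Those 22 are 23.4% of the 94 eligible tiles that were that wide among conditioned pools. At the other end, 56 variable tiles (25%) had a conditioned range under 10 points, against 70.2% of all eligible tiles. A set of 3 libraries spans less than a set of 4: over any 3 of the non-conditioned libraries, 131 to 141 eligible tiles reached 40 points, against the 94 of the conditioned libraries. The median range of all eligible tiles over any 3 non-conditioned libraries was 4.87 to 5.01 points, against the 5.56 points of the conditioned ones.

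The conditioned spread was also compared within broad classes of level and size. Among tiles with a conditioned mean of 20% to 80% and 6 to 10 positions, the median conditioned range was 21.6 points in 132 variable tiles and 12.9 points in 2438 others, and 14.4% and 1.68% reached 40 points. With 11 or more positions at that level, it was 16.4 points in 38 variable tiles and 12.0 points in 2827 others. Under a mean of 20% and with 6 to 10 positions, it was 14.3 and 5.47 points in 27 and 773 tiles. With 11 or more positions at that level, it was 6.18 and 3.27 points in 18 and 7287 tiles. From a mean of 80% and with 6 to 10 positions, it was 9.26 and 7.76 points in 9 and 505 tiles. Tiles of a class still differ in level, in number of positions and in depth, which is unknown. The part of these in the spread was not tested. Leaving out a library can only narrow a range: the count of 22 was 6 without conditioned library 1-2, 8 without 3 and 17 without 4. Conditioned library 1-2 was the highest of the 3 in 113 variable tiles, and conditioned library 3 was the lowest in 105. Conditioned libraries 3 and 4 differed from each other by a median of 8.79 points in variable tiles.

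**Figure D5:**
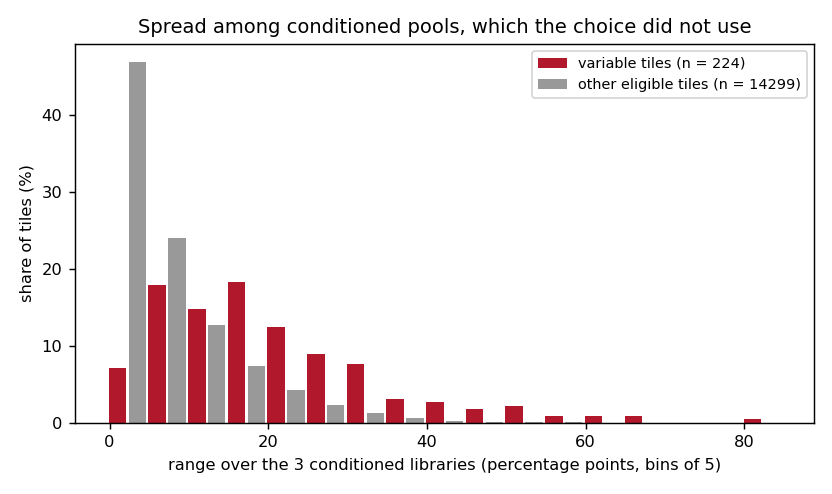
Share of tiles in percent (y axis) by the range over the 3 conditioned libraries in bins of 5 percentage points (x axis), for the 224 variable tiles in red and the 14299 other eligible tiles in grey. The variable tiles reach further to the right, with a median of 17.0 points.

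All 22 variable tiles with a conditioned range of 40 points or more had a conditioned mean between 20% and 80%, as had all other eligible tiles that wide. A range that large over 3 values itself keeps their mean away from 0 and 100%. At chromosome 1, 265001 to 265500, the conditioned libraries had 100%, 16.7% and 69.4%, and the non-conditioned ones 0, 0, 75.0% and 66.7% over 6 positions of 1 strand. At chromosome 12, 2823501 to 2824000, the conditioned libraries had 73.5%, 42.6% and 5.88%, against 10.8%, 24.5%, 47.1% and 0 over 17 positions of 1 strand. At chromosome 14, 2610501 to 2611000, they had 75.0%, 12.9% and 54.2%, against 35%, 43.6%, 10% and 55%. The groups overlapped in each of these. At the narrow end, all 3 conditioned libraries were listed at 0 in 4 variable tiles. Of these, chromosome 1, 139209001 to 139209500, had 83.3% in non-conditioned library 4 and 0 in the other non-conditioned libraries.

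Heat conditioning was then compared with no conditioning in the same tiles. None of the 224 variable tiles passed at an adjusted p under 0.05 in limma, a moderated linear model fitted here to all 14255 eligible tiles with a mean of 2% to 98%, on a log2 ratio of methylated to unmethylated share. The background in that fit was 0% as well, with a lowest adjusted p of 0.723 among variable tiles and 0.536 among all tiles. At an unadjusted p under 0.05, 1 variable tile was higher and 3 were lower in conditioned microglia, where 0.898% and 5.79% of all tested tiles were higher and lower. The exact permutation test on single tiles, two-sided, gave 0 variable tiles at an unadjusted p under 0.05, against 4.34% of all tested tiles, with a smallest exact p of 0.0571 where 0.0286 is possible. A wide spread among the non-conditioned libraries was the condition for entering the list. It gave a median SE of 0.72 log2 units in variable tiles, against 0.25 in all tested tiles, so the count of calls cannot be read apart from the choice. Without single non-conditioned libraries, 1 to 8 variable tiles were higher and 7 to 11 lower at an unadjusted p under 0.05, and 0 after adjustment. The shares over all tested tiles in those fits are not given here, so these counts have no background beside them.

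The group means differed in both directions, and the quartiles of the difference lay further apart than in the other tiles. Conditioned means were lower in 133 variable tiles and higher in 91, which is 59.4% lower, against 68.8% of all eligible tiles. The median difference, conditioned minus non-conditioned, was -2.56 points in variable tiles and -1.10 points in all eligible tiles. Its quartiles were -9.77 and 5.32 points in variable tiles and -2.62 and 0.603 points in the other tiles. It ran from -35.3 to 32.2 points in variable tiles and from -44.4 to 30.2 points in the other tiles. By 20 points or more, 6 variable tiles were higher and 11 lower, and the share of all eligible tiles is not given here. On the log2 ratio scale the median was -0.16 in variable tiles and -0.14 in all tested ones. Its direction turned without conditioned library 3, where it was 0.02, and it was -0.01 once the median of each library was set to 0. Across variable tiles, conditioned and non-conditioned means had a Pearson's r of 0.884, and across all eligible tiles 0.989. Tiles share the 7 libraries and are not replicates. The non-conditioned mean comes from the values whose wide range chose the tiles. The wider quartiles and the lower r therefore describe the list only.

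Most conditioned values fell inside the wide non-conditioned range. This held for 189, 206 and 210 of the 224 tiles in conditioned libraries 1-2, 3 and 4, which is 84.4%, 92% and 93.8%, against 55.6%, 42.6% and 54.0% of all eligible tiles. Conditioned library 1-2 lay above the range in 24 tiles and below it in 11, conditioned library 3 above in 3 and below in 15, and conditioned library 4 above in 4 and below in 10. No variable tile had all conditioned values above all non-conditioned ones, and 1 had them all below, where 0.943% and 6.59% of all eligible tiles did. The range that chose the tiles sets how far a value must go to leave it, so these counts describe the list only. Without single non-conditioned libraries, 1 to 8 variable tiles had all conditioned values above and 6 to 8 had them all below. The shares over all eligible tiles without those libraries are not given here.

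The single tile without overlap lay at chromosome 1, 49764501 to 49765000. All 3 conditioned libraries were listed at 0 there, against 41.9%, 16.9%, 17.6% and 0.823% in non-conditioned libraries 1 to 4 over 6 reverse-strand positions. The lowest non-conditioned library was under 1 point from the conditioned ones. Its log2 ratio difference of -2.25 (SE 0.70) had the lowest limma p of the variable tiles, with a limma adjusted p of 0.723. The tile at chromosome 1, 36471001 to 36471500, had 6.67%, 0.309% and 1.38% in the conditioned and 44.4%, 17.5%, 2.78% and 24.2% in the non-conditioned libraries over 18 positions, 17 of them on the reverse strand (limma adjusted p = 0.723). In both tiles the conditioned libraries were near 0 and the non-conditioned ones spread upward.

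Further lower tiles had higher non-conditioned means, and most of them had higher conditioned means too. At chromosome 1, 141046501 to 141047000, the conditioned libraries had 18.7%, 34.9% and 23.9%, and the non-conditioned ones 24.8%, 70.1%, 49.5% and 45.7% over 6 positions (limma adjusted p = 0.723). At chromosome 12, 8986501 to 8987000, they had 32.5%, 27.1% and 39.8%, against 50%, 87.5%, 37.5% and 50%. At chromosome 1, 193184501 to 193185000, the difference was the largest on the list at -35.3 points, over 6 positions, all on the forward strand. The conditioned libraries had 0, 16.7% and 2.38% there, and the non-conditioned ones 66.7%, 0, 50% and 50%. The remaining one of the 6 lower tiles with the smallest p, at chromosome 1, 33910001 to 33910500, was described above and differed by -32.5 points.

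The 6 higher tiles with the smallest p had differences of 13.4 to 32.2 points. Only chromosome 1, 146893001 to 146893500, was under 0.05 before adjustment, with 81.0%, 100% and 88.1% in the conditioned and 28.6%, 85.7%, 57.1% and 76.2% in the non-conditioned libraries over 7 positions (log2 ratio difference 2.17, SE 0.84, limma adjusted p = 0.723). The largest difference, at chromosome 12, 13816001 to 13816500, came with 85.7%, 21.4% and 40.5% in the conditioned and 0, 57.1%, 10.7% and 0 in the non-conditioned libraries. At chromosome 10, 20386001 to 20386500, the conditioned mean was 28.6 points higher over 22 positions (limma adjusted p = 0.723). The conditioned libraries lay above 3 of the 4 non-conditioned ones there, with conditioned 1-2 and 4 under non-conditioned 3. At 13 further positions of that tile, which the choice did not use, non-conditioned 3 and 4 were both at 61.5%. The tiles at chromosome 1, 189935001 to 189935500, chromosome 12, 16042501 to 16043000, and chromosome 13, 13356501 to 13357000, were higher by 16.5, 13.4 and 21.2 points with overlapping groups.

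In the authors' deposited table of segments, 49 segments overlapped 48 of the variable tiles. Of these 49, 37 were lower and 12 higher in conditioned microglia. The share of lower segments among all deposited ones is not given here, so these counts have no background beside them. One of the 49 segments had a deposited q-value under 0.05, which is the case for 0.683% of all 53008 segments. It lies at chromosome 1, 36471370 to 36471421, inside a tile named above, and the authors' deposited table gives it means of 0.132% in conditioned and 29.4% in non-conditioned microglia over 12 positions. Those segments were called on the same libraries, non-conditioned spread included.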

How the data were processed

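Per the labels, the build galGal5 and the tools HOMER, Bowtie, Bismark 0.22.3 and Trimmomatic stand in the submitters' processing notes; roles and coverage filters are not given in the sources used here. The deposited site table gives percent methylation of each cytosine in each library, unscaled, without depth. The deposited segment table gives, per the file headers, group means in percent, p-values and q-values, and a count of CpG positions per segment.

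From these, positions with values in all 7 libraries were averaged in 500-bp tiles starting at position 1, both strands pooled. Tiles with 6 or more positions were eligible, and those with a non-conditioned range of at least 40 points (tolerance 1e-06) were kept. In runs of an even number of adjacent positions, the first cytosine of each pair was taken as forward and the second as reverse. Tiles were compared with limma 3.58.1 in R 4.3.3 (mean-variance trend, log2((fraction + 0.05)/(1 - fraction + 0.05)), Benjamini-Hochberg over 14255 tiles, mean 2% to 98%), and with exact permutation over 35 arrangements. The limma step was also run on simulated data, with changed tiles drawn at random from all tested tiles. That run did not single out variable tiles, and its outcome is not given here. Python 3.11.15, numpy 2.4.6 and pandas 2.3.3 did the rest. The labels do not say that pools are separate hatches, so p-values measure the spread between these pools only.

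Tiles named are the 12 widest on both strands, the 6 smallest limma p in each direction, the 5 widest and 5 narrowest among conditioned libraries, adjacent pairs and 3 tiles on each side of 40 points; the 6 widest of all were added later. The tiles and lists were chosen with earlier results of these data known.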

Additional observations from a re-analysis of the deposited data

Results flagged for a closer look

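In 5 of the 39 named tiles, 1 non-conditioned library stood far from the other three by its gap over the group's range, where chance gives about 1.95 of 39. The tiles were chosen for a wide range, so this number cannot be read against chance. Non-conditioned library 3 stood apart at chromosome 1, 64589001 to 64589500 (gap over range 1, 100% against 0), and at chromosome 11, 10120501 to 10121000 (0.857, 100% against 14.3% in the next). Non-conditioned library 4 stood apart at chromosome 1, 139209001 to 139209500 (1, 83.3% against 0), and non-conditioned library 2 at chromosome 12, 254501 to 255000 (0.967, 40% against 1.33%). At chromosome 13, 7773001 to 7773500, non-conditioned library 1 was low (0.833, 20% against 53.3% in the next), and the conditioned libraries had 58.3%, 44.8% and 45.2%. Over all 224 variable tiles, 17 had such a gap at the top and 4 at the bottom.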

How the results depend on the processing

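The number of variable tiles depended on how they were cut. It was 789 with 3 or more positions, 71 with 10 or more, 148 in tiles of 1000 bp, 537 at 30 points, 84 at 50 points, 551 with the median over positions and 99 with 40 points on each strand; without single non-conditioned libraries it was 131 to 141. Tiles shifted by 250 bp (199) and each CpG counted once (272, of which 211 were among the 224) stayed within 1.5 times. No variable tile passed after adjustment under any setting. The 1 higher tile at an unadjusted limma p under 0.05 became 2 with an offset of 0.01, with untransformed percentages or with centred libraries, 0 by the exact permutation test, and 1 to 8 with single libraries left out (8 without non-conditioned library 2 or 4). The 3 lower tiles became 1 with 10 or more positions, 0 by the exact permutation test and 2 to 11 with single libraries left out (11 without non-conditioned library 2). Conditioned ranges of 40 points or more numbered 6 to 17 without single conditioned libraries. With single libraries left out, 1 to 8 tiles had no overlap with conditioned values above and 2 to 8 with them below. A replicate block over the numbers 3 and 4, which both groups share, left 4 libraries and gave 17 higher and 52 lower tiles at an unadjusted p and 0 after adjustment; deviations of same-numbered libraries had correlations of 0.0027 and 0.018 over tiles, so the numbers are not known to pair the pools. Outside the main setting and the permutation test, shares over all tiles are not given here for the unadjusted p or the overlap. The counts under those settings, 17 and 52 included, thus have no background beside them. Under the block, the tile at chromosome 13, 13356501 to 13357000, turned to -0.35. The other 171 of 172 values of the named compared tiles kept their direction. The cause of these changes was not tested.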

Other observations

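The share of variable tiles near chromosome ends was close to that of the other tiles, and the difference was not tested. It was not adjusted for chromosome either. A fixed distance covers more of a short chromosome than of chromosome 1, and the share of variable tiles differed between chromosomes. Within 1000000 bp of the first or last position that the table lists on a chromosome lay 15.6% of the variable tiles and 12.5% of the other eligible tiles, and within 5000000 bp 48.2% and 43.7%; the cut end of chromosome 14 was left out. Only 10 pairs of variable tiles started within 10 kb of each other.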
